A study of Mus musculus with 4 samples.

Results

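The response of the liver to a 24 hour fast was compared between wild-type and PPARα-null mice. For each probe set, a group of short array probes that reports 1 transcript, the change from the fed to the fasted state was taken in each genotype, and the change in the null mice was subtracted from the change in the wild-type mice. The members were the 6032 probe sets with 64 units or more on any of the 4 arrays, out of 22626 that are not controls. They named 3808 genes, out of 12393 with a probe set of their own, when each gene was read from its brightest probe set. The 4 groups were fed wild-type, fasted wild-type, fed PPARα-null and fasted PPARα-null male mice, all aged 12 to 20 weeks. The wild-type mice were of the substrain 129S1/SvImJ and the null mice of the substrain 129S4/SvJae, so that the loss of the receptor and the substrain cannot be told apart. Fed mice were sampled when the dark period ended, whereas fasted mice had lost access to food at lights on, 24 hours earlier. RNA of the 5 mice in a group was pooled before labelling, and 1 array was hybridized per pool. No difference below therefore has a replicate check, and neither a test nor a p-value is given. The precision of every value is limited by the number of arrays.

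PPARα is a nuclear receptor that pairs with the retinoid X receptor and binds fatty acids and their derivatives. It is abundant in hepatocytes and is known to switch on genes of fatty acid uptake, peroxisomal and mitochondrial oxidation and ketone body production. During fasting, fatty acids are released from adipose tissue and reach the liver. The hormonal shift of fasting, with less insulin and more glucagon and glucocorticoid, acts on the liver at the same time through other factors.

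Ppara itself read 583, 755, 104 and 16.3 units on the fed wild-type, fasted wild-type, fed null and fasted null arrays, and the values of every gene below are given in that order. The null arrays were the lower ones in both feeding states. The 8 hepatocyte markers, which include albumin and transthyretin, were measured on all arrays and summed to 80379, 87328, 80712 and 99375 units. Kupffer cell and macrophage markers summed to 985, 584, 1019 and 1191 units over the 11 with a probe set, of which Cd68 stayed at the floor of 16 units on all arrays. Stellate cell markers summed to 1683, 1657, 2183 and 2910.0 units, with Lrat and Des at the floor. Endothelial markers summed to 413, 503, 429 and 926 units with Pecam1 at the floor. The T and B cell, cholangiocyte, neutrophil and adipocyte lists each summed to at most 103 units on any array. The 2 erythroid markers with a probe set summed to 472, 202, 756 and 427 units, with Hba-a1 at the floor, so that the sum was lower on both fasted arrays and higher in each null pool than in the wild-type pool of the same feeding state. In a pool of whole liver, fewer cells of a type and less RNA per cell cannot be told apart. The ratio of the 3′ to the 5′ control probe sets was between 2.13 and 2.45 for beta-actin and between 0.953 and 1.06 for Gapdh, while the 18S ribosomal RNA control fell from 1677 units on the fed null array to 827 on the fasted null array and read 2340.4 and 2513 on the wild-type arrays.

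The 2 genotypes responded in a related but unequal way. Over the 6032 probe sets the responses correlated with a Pearson r of 0.609 and a Spearman rho of 0.604, a description across probe sets, which are not replicates, of contrasts that share no array. The response had the same sign in 72.4% of the probe sets. Its spread was larger in the null mice, with an SD of 1.02 on the log2 scale against 0.74 in wild-type mice, and the null response was the larger in size in 65.8% of the probe sets. The median size of the response was 1.22-fold in wild-type and 1.36-fold in null liver. Of the genes, 12.5% were 1.5-fold or more higher and 12.7% 1.5-fold or more lower in wild-type liver after fasting, against 16.8% and 25.1% in null liver.

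Responses lay 1.5-fold or more apart in 1878 probe sets. In 1170 of them (19.4%) the wild-type response was the higher and in 708 (11.7%) it was the lower, which puts 62.3% on the side of a higher wild-type response. This balance depended on how the arrays were scaled, since the share was 52.7% after quantile normalization of the 4 arrays, 48.8% after removal of an intensity trend and 45.7% after centring on bright probe sets. Centring moved the median difference from 0.05 to -0.11 on the log2 scale. Counted as genes, 775 (20.4%) had a higher and 460 (12.1%) a lower response in wild-type liver, and these shares are the background for the gene groups below.

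Each response was sorted by what the null liver did with it. A shared response passed 1.5-fold in the same direction in both genotypes, a lost response passed it in wild-type liver only, a gained response in null liver only, and a reversed response passed it in opposite directions. Lost and gained responses also had to lie 1.5-fold or more apart. Another 668 probe sets (11.1%) passed 1.5-fold in 1 genotype with responses less than that apart, and are in none of these classes. Shared rises took 429 probe sets (7.11%) and shared falls 538 (8.92%). Lost rises took 177 (2.93%) and lost falls 84 (1.39%), whereas gained rises took 358 (5.94%) and gained falls 582 (9.65%). A rise in wild-type liver was turned into a fall in 57 probe sets (0.945%), and a fall into a rise in 20 (0.332%). The 940 gained responses thus outnumbered the 261 lost ones. The balance of gained rises and falls turned on the scaling, with 453 rises and 478 falls after quantile normalization, 466 and 434 with the intensity trend removed, and 539 and 432 with centring.

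**Figure D1:**
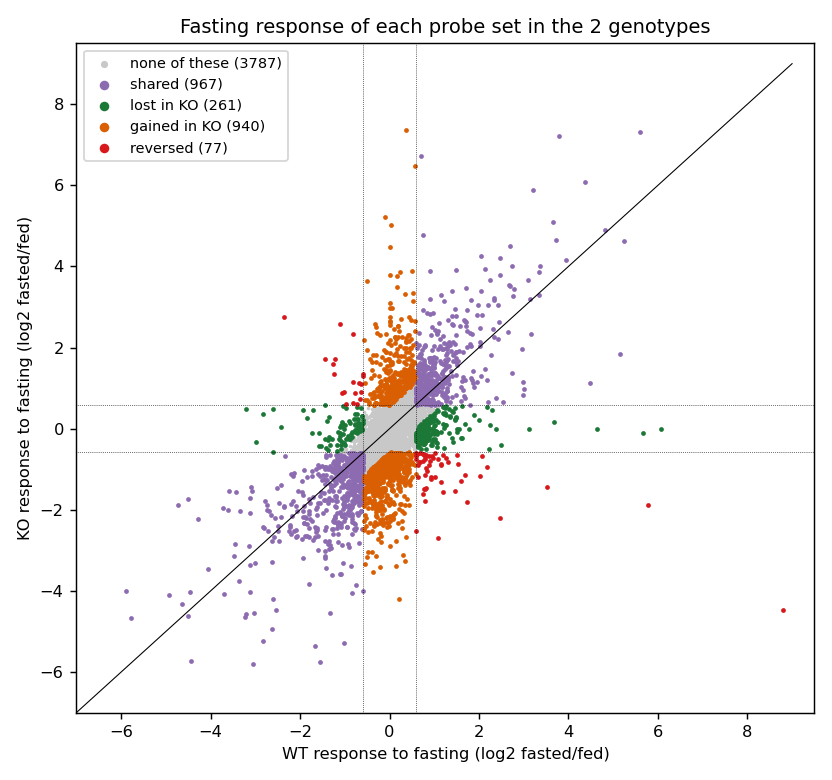
Log2 response to fasting of each of the 6032 probe sets in wild-type (WT, horizontal) and PPARα-null mice (KO, vertical), coloured by class, with the line of equal response and dotted lines at 1.5-fold. The cloud is taller than it is wide, with SDs of 1.02 and 0.74, and the 940 gained responses along the vertical axis outnumber the 261 lost ones along the horizontal axis.

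Of the 776 probe sets that rose in wild-type liver 55.3% also rose in null liver, and of the 725 that fell 74.2% also fell. Read from the null side, 41.3% of 1039 rises and 38.0% of 1417 falls were shared by wild-type liver. Most of the rest were changes of the same sign under the threshold. The sign was the same in wild-type liver for 87.0% of the null rises and 80.6% of the null falls. In null liver it was the same for 79.6% of the wild-type rises and 91.6% of the wild-type falls. Where both genotypes rose, 131 probe sets rose further in null and 28 further in wild-type liver by 1.5-fold or more. Where both fell, 173 fell deeper in null and 38 deeper in wild-type liver.

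Much of the difference lay on the fasted arrays. Among the 1878 probe sets with responses apart, 775 (41.3%) had 1 array that stood 1.5-fold or more outside 3 arrays which were themselves less than 1.5-fold apart. That array was the fasted null one in 374 probe sets (19.9%) from below and in 221 (11.8%) from above. It was the fasted wild-type one in 96 from above and 45 from below. Over all 6032 probe sets, 896 (14.9%) had 1 such array. It was the fasted null one in 415 (6.88%) from below and in 258 (4.28%) from above. Lost rises differed between the genotypes by 1.5-fold or more in the fasted state alone in 121 of 177 probe sets, gained rises in 267 of 358 and gained falls in 440 of 582. Shared rises did so in 133 of 429 and shared falls in 184 of 538. Lost and gained responses lie apart by definition, whereas 270 of the shared rises and 327 of the shared falls did not. The shares of these classes can therefore not be compared directly. A difference that rests on the single fasted null array, and so on 1 pool and 1 hybridization, was not repeated.

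**Figure D2:**
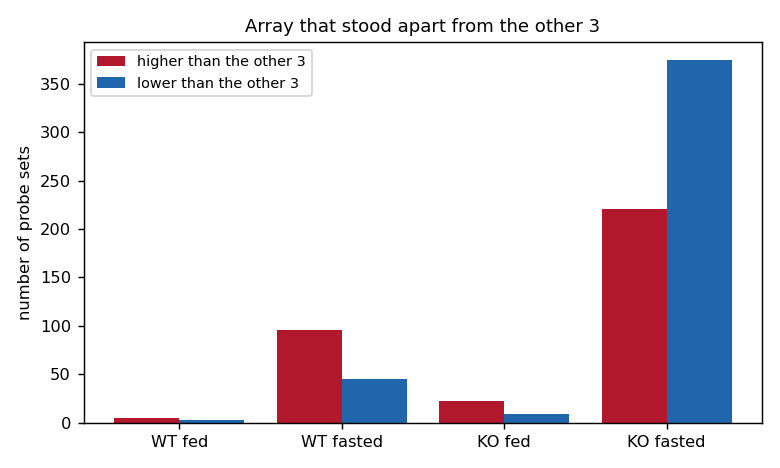
Number of probe sets (vertical axis), among the 1878 with responses 1.5-fold or more apart, in which 1 array stood apart from the other 3, by array and direction. The fasted null array (KO fasted) accounts for 374 lower and 221 higher probe sets, and the fed arrays for few. Over all 6032 probe sets it stood apart in 415 and 258.

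At the level of genes, 104 (2.73%) were lost rises. Vnn1, the pantetheinase that recycles pantothenate from coenzyme A breakdown, read 35.4, 1795, 17.1 and 7.69 units, and the responses lay at least 5.76 apart on the log2 scale. Ehhadh, the bifunctional enzyme of peroxisomal beta-oxidation, read 2279, 10629, 2216 and 1557 units. It rose 4.66-fold in wild-type liver and did not reach 1.5-fold in null liver, with a log2 difference of 2.73. The fasted wild-type array stood above the other 3 for both genes.

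Cyp2c39, a cytochrome P450 known to hydroxylate retinoic acid, read 42.6, 548, 36.5 and 40.8 units and rose 12.9-fold in wild-type liver only. Rdh16, a retinol dehydrogenase, read 90.5, 472, 92.0 and 91.8 units, a rise of 5.21-fold in wild-type liver against a null response of -0.0031 on the log2 scale. Aldh3a2, the fatty aldehyde dehydrogenase, read 459.6, 1393, 215 and 183 units. All of these had their highest value on the fasted wild-type array. Some lost rises had no measurable level in null liver, so that the size of the difference is not known. Cyp4a31, of the fatty acid omega-hydroxylase family, read 9.17, 1073, 8.04 and 10.3 units, and the small GTPase gene Rab30 read 15.0, 397, 12.6 and 12.5 units. Cox6b2, an isoform of a cytochrome c oxidase subunit best known from testis, read 96.6, 842, 7.46 and 8.33 units. The Cyp4a genes are near-identical in places, and their probe sets may share transcripts.

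**Figure D3:**
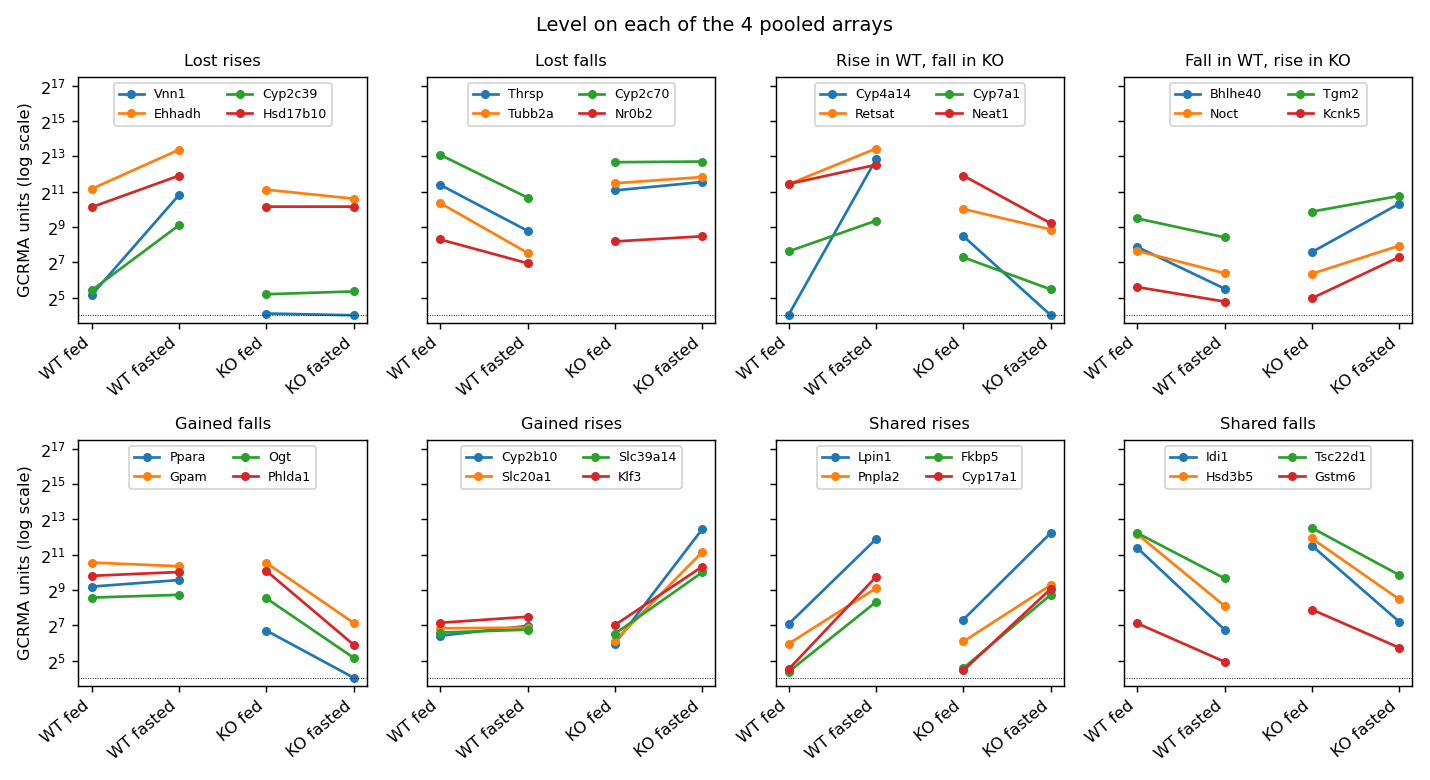
Level of 4 genes of each class on the 4 pooled arrays, in GCRMA units on a log scale with values under the floor of 16 units (dotted line) drawn at it. Each point is 1 pool and lines join the fed and fasted arrays of a genotype, so a class shows as a slope that is flat or turned in 1 genotype, as for Ehhadh at 2279, 10629, 2216 and 1557 units.

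Mitochondrial beta-oxidation genes rose mostly in wild-type liver. Of 21 measured genes, 14 had a higher wild-type response and 2 a lower one, beside 20.4% and 12.1% of all measured genes. The median response was 0.90 on the log2 scale in wild-type and -0.08 in null liver, and over all genes 0.0090 and -0.067. Between 12 and 14 genes were on the higher side and 2 on the lower side under the 3 other scalings. By class, 8 were lost rises and 5 shared rises.

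Hsd17b10, a hydroxyacyl-CoA dehydrogenase of the mitochondrial matrix, read 1113, 3839.5, 1139 and 1138 units, a 3.45-fold rise in wild-type liver against a null response of -0.00045 on the log2 scale. Etfdh, which passes electrons from the acyl-CoA dehydrogenases to ubiquinone, read 1279, 2549, 464 and 433 units. It rose 1.99-fold in wild-type liver and was low on both null arrays. Eci1, the enoyl-CoA isomerase needed for unsaturated fatty acids, turned from a rise into a fall and read 1171, 2180.3, 521 and 299 units. For the carnitine system, Crat (carnitine acetyltransferase) read 26.4, 207, 38.5 and 68.1 units and Slc22a5 (the carnitine transporter OCTN2) read 15.9, 93.0, 13.2 and 25.2 units. Crat rose in each genotype and rose further in wild-type liver, by a log2 difference of 2.15. Both fed arrays lay under the floor for Slc22a5, so that the size of its difference is not known.

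The exceptions ran the other way. Cpt1a, the rate-limiting carnitine palmitoyltransferase of the outer membrane, read 904, 1799, 477 and 1452 units, and Acadl, the long-chain acyl-CoA dehydrogenase, read 1558, 2879, 449.9 and 1505 units. They were the 2 genes of this list that rose further in null liver, with log2 differences of -0.61 and -0.86. Both started lower in the fed null liver. Etfb, a subunit of the electron transfer flavoprotein, read 1389, 1469, 703 and 737 units, lower on both null arrays and with responses 0.014 apart on the log2 scale.

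Peroxisomal genes leaned in the same direction. Of 24 measured genes of peroxisomal beta-oxidation and biogenesis, 12 had a higher and 0 a lower wild-type response, with medians of 0.72 in wild-type and 0.21 in null liver on the log2 scale. Between 10 and 11 of the 24 passed under the 3 other scalings. Pex11a, which drives peroxisome division, read 146, 1168, 144 and 283 units and rose 7.98-fold in wild-type against 1.97-fold in null liver. Acaa1a, the peroxisomal thiolase, read 415, 1204, 412 and 225 units and was reversed. Crot, the carnitine octanoyltransferase that exports shortened chains, read 4466, 5250.1, 4869 and 1340.2 units. Its difference of 2.09 on the log2 scale came from a fall in null liver, with little change in wild-type liver.

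**Figure D4:**
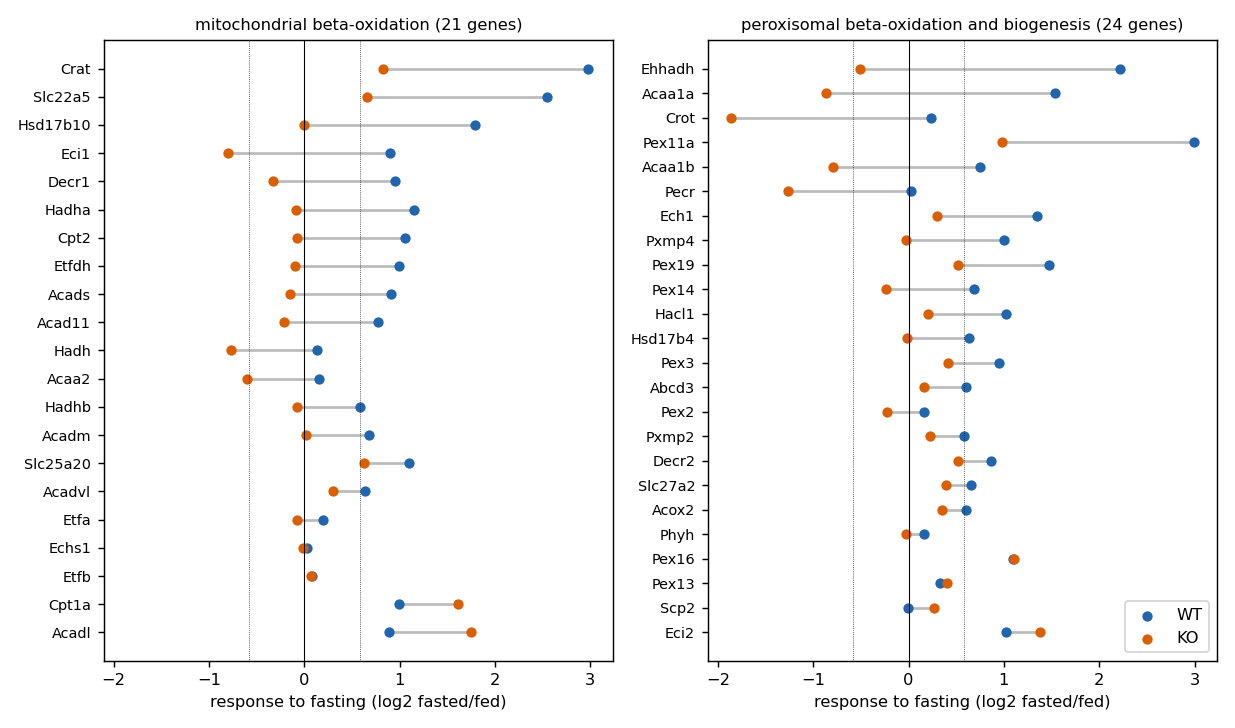
Log2 response to fasting of the 21 mitochondrial and 24 peroxisomal genes in wild-type (WT) and null (KO) pools, 1 point per genotype and gene, sorted by the difference of responses, with dotted lines at 1.5-fold. The wild-type point lies to the right of the null point for most genes, and Cpt1a and Acadl are the 2 mitochondrial genes with the null point 1.5-fold or more to the right.

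To show the start of a lost rise, the 300 bases around the start of Ehhadh are given from RefSeq (GRCm38.p6, chr16:21787785-21788084, minus strand, printed 5′ to 3′ along the gene with 250 bases before and 50 after the start).
Ehhadh: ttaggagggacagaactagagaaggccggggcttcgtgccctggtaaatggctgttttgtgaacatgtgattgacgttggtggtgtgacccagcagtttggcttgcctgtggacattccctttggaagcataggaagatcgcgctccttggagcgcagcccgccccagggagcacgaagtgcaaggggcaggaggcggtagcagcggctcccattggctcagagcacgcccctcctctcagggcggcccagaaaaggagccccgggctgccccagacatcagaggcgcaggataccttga
The window was searched on both strands for a direct repeat of AGGNCA with 1 spacer base, the kind of element to which the receptor pair is known to bind, and held 0 matches. None of the 84 lost rises with a RefSeq promoter held one, beside 0.451% of 27025 genes. This says only that these letters are not in these windows.

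Other steps of fatty acid handling differed in how they did so. Of 10 measured genes of acyl-CoA thioesterases and coenzyme A turnover, 5 had a higher and 0 a lower wild-type response. Acot1, a cytosolic acyl-CoA thioesterase, read 142, 3193, 870.1 and 1909 units. It rose in both, 22.4-fold in wild-type and 2.19-fold in null liver, where the fed level was already higher. Ppcs, of coenzyme A synthesis, read 79.6, 97.0, 82.2 and 20.1 units and was low on the fasted null array only. Among 13 genes that take up, bind or activate fatty acids, 6 had a higher and 2 a lower wild-type response. Fabp1, the liver fatty acid-binding protein, read 23524, 20630.0, 23302 and 7814 units and Acsl5, an acyl-CoA synthetase, read 1623, 1194, 1420.3 and 404 units, both gained falls. Cd36, a fatty acid translocase, read 157, 288, 427 and 228 units, with its highest value in the fed null pool. Fabp5 fell in both genotypes and deeper in wild-type liver, at 1079.9, 81.3, 653 and 167 units.

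Ketone body genes fell in null liver rather than failing to rise. The 3 measured genes, out of 5 with a probe set, were all gained falls, beside 396 gained falls among all genes (10.4%). Bdh1, the hydroxybutyrate dehydrogenase, read 1861, 2005, 1931 and 985 units, Slc16a1, a transporter of ketone bodies and lactate, read 913, 1055, 1367 and 780.5 units, and Acat1, the acetoacetyl-CoA thiolase, read 4324, 4716, 3396 and 2139 units. None of them passed 1.5-fold in wild-type liver.

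Lost falls were fewer and of mixed function, with 58 genes (1.52%). Thrsp, a regulator of lipogenesis, read 2684, 441, 2152 and 2995 units. It fell 6.09-fold in wild-type liver and stayed high in null liver, and its other probe set gave a log2 difference of -3.69 beside -3.08. Tubb2a, a beta-tubulin, read 1311, 186, 2852 and 3641 units. Cyp2c70, the enzyme of muricholic acid formation in mice, read 8714, 1622, 6517 and 6689 units and was lower on the fasted wild-type array alone. Nr0b2, the small heterodimer partner that represses bile acid synthesis, read 314, 124, 290.1 and 356 units.

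The remaining lost falls among the 8 with the largest difference were mostly regulators. Id3, an inhibitor of helix-loop-helix factors, read 621, 102, 811 and 547 units. Pde4b, a cyclic AMP phosphodiesterase, read 222, 67.7, 277 and 378 units and Dusp1, a phosphatase of MAP kinases, read 507, 187, 429 and 639 units. Lbr, the lamin B receptor that also acts as a sterol reductase, read 128.1, 35.6, 102 and 122 units. The fasted wild-type value was the lowest of the 4 for each of these genes. Of 7 measured Kupffer cell markers 5 had a lower wild-type response, but only 3 of the 7 were lost falls, with 1 shared fall and 1 reversed. Among the lost falls, C1qb, a complement C1q chain of macrophages, read 195, 95.4, 232 and 343 units. Cd5l, a secreted macrophage protein, read 235, 139, 214 and 254 units. The median difference of the 7 markers was -1.004 on the log2 scale. With a floor of 64 units it was -0.29, and 3 of them had a lower wild-type response. The part of these markers in other results was not tested.

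Reversed responses with a rise in wild-type and a fall in null liver were 36 genes (0.945%). Cyp4a14, a microsomal omega-hydroxylase of fatty acids, read 16.3, 7278, 356 and 11.7 units, the largest difference of all genes on this scale. It rose in wild-type liver from a fed value next to the floor, and fell under the floor in null liver from a fed level above that of wild-type mice. The log2 difference was at least 13.28 with the floor of 16 units, and 9.31 with one of 64 units. Retsat, the retinol saturase, read 2745, 11140.0, 1036 and 463 units. It rose 4.06-fold in wild-type and fell 2.24-fold in null liver, and its other probe set put the difference at 4.96 rather than 3.18 on the log2 scale.

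Cyp7a1, which catalyses the first and limiting step from cholesterol to bile acids, read 197, 654, 155 and 44.1 units, and its other probe set gave a log2 difference of 4.66 beside 3.55. Nr1h4, the bile acid receptor FXR, read 589, 1017, 530.5 and 153 units and was also reversed. Of 21 measured genes of bile acid synthesis and transport, 6 had a higher and 4 a lower wild-type response, so that the list as a whole did not move one way. Neat1, a long non-coding RNA of nuclear paraspeckles, read 2771, 5879.6, 3838 and 589 units. The fasted null array was the lowest of the 4 for these 3 genes.

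Further genes were reversed in the same direction. Gpd1, the cytosolic glycerol-3-phosphate dehydrogenase, read 459.8, 881, 349 and 147 units. Pctp, the phosphatidylcholine transfer protein, read 193, 867, 549 and 287 units, a 4.51-fold rise in wild-type and a 1.91-fold fall in null liver. Vnn3, a vanin next to Vnn1 in function, read 87.3, 280.5, 103 and 47.2 units. Etfbkmt, the methyltransferase of the electron transfer flavoprotein, read 442, 1216, 347 and 120.5 units, and St3gal4, a sialyltransferase, read 119, 238, 144 and 62.6 units. In each the fasted wild-type array was the highest of the 4 and the fasted null array the lowest, except that fed wild-type liver was the lowest for Pctp.

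The opposite reversal was rare, with 11 genes (0.289%). Bhlhe40, a repressor of the circadian clock that also responds to nutrients and hypoxia, read 234, 45.5, 191 and 1282 units. It fell 5.14-fold in wild-type and rose 6.7-fold in null liver. Noct, the nocturnin phosphatase, read 200.4, 83.5, 81.7 and 246 units, and Nfil3, a repressor that acts on clock output genes, read 58.5, 36.2, 81.4 and 176 units. Tgm2, the tissue transglutaminase, read 716, 341, 937 and 1736 units, and its 4 other probe sets gave log2 differences from -0.80 to -2.17. Kcnk5, a potassium channel, read 48.4, 27.4, 31.2 and 158 units, and Actg1, cytoplasmic gamma-actin, read 2223, 1422, 2229 and 4745 units. C6, a late complement component, read 999.6, 564, 994 and 1543 units, and Rell1 read 72.5, 48.2, 84.5 and 209.6 units. The fasted null array was the highest for all 8.

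The circadian clock list as a whole had 6 of 9 measured genes with a lower wild-type response and 2 with a higher one. Its median response was 0.33 in wild-type and 1.19 in null liver on the log2 scale. Rora, an activator of the clock, read 87.1, 118, 98.5 and 270.3 units and was a gained rise, but the mean over its probe sets put the difference at -0.52, under the threshold. Hlf, a clock output factor, went the other way at 67.5, 118, 66.2 and 62.1 units. Both genotypes were fasted from lights on and sampled 24 hours later, while the fed pools were taken at the end of the dark period, so that fed and fasted pools were taken at about the same clock time.

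Among the gained falls, Gpam, the mitochondrial acyltransferase that starts glycerolipid synthesis, read 1499.9, 1301, 1479 and 140.1 units and fell 10.6-fold in null liver only. Ogt, the enzyme that adds N-acetylglucosamine to proteins, read 379, 422, 369 and 35.6 units, with a log2 difference of 3.53 here and 1.69 in its other probe set. Phlda1, a pleckstrin-homology protein, read 891, 1035, 1081 and 59.3 units. The fasted null array alone was low for these 3 genes. Ppara was itself a gained fall, with a null response of -2.67 on the log2 scale. Its difference of 3.05 was 1.07 with a floor of 64 units.

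The other gained falls among the largest had no common function. Ndrg1, a stress-responsive gene, read 44.4, 34.2, 343 and 29.6 units and was high on the fed null array alone, and its 2 other probe sets gave log2 differences of 1.89 and 1.92 beside 3.16. Rreb1, a zinc finger factor, read 539.6, 593, 637 and 93.3 units, Mcm10, a replication protein, read 732, 498, 458 and 45.5 units, and Depdc7 read 297, 239.6, 235 and 26.6 units. Those 3 were lowest on the fasted null array. Genes of glycolysis, glycogen and glucose transport had 7 of 16 measured members with a higher wild-type response and 1 with a lower one, and 5 or 6 with a higher one under the 3 other scalings. Slc2a2, the glucose transporter of hepatocytes, read 2163, 2175, 2143 and 648 units, a gained fall. Ppp1r3c, which targets a phosphatase to glycogen, read 897, 108, 893 and 12.0 units, a fall in both that was deeper in null liver. Pdk1, a kinase of pyruvate dehydrogenase, read 674, 813, 641 and 118 units. G0s2, an inhibitor of the lipase ATGL, read 1024, 978, 1447 and 322 units.

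Gained rises took 231 genes (6.07%). Cyp2b10, the P450 best known as a target of the receptor CAR, read 84.7, 125, 62.5 and 5574 units. It rose 89.2-fold in null liver and not past 1.5-fold in wild-type liver, and its 2 other probe sets gave log2 differences of -6.04 and -6.99 beside -5.92. Slc20a1, a phosphate transporter, read 114, 116, 69.4 and 2269 units. Slc39a14, a zinc and iron importer, read 96.1, 108, 91.5 and 1022 units, and Klf3, a transcriptional repressor, read 141, 179, 129 and 1279.9 units. The fasted null array stood far above the other 3 for all 4 genes. Eppk1, Moxd1 and Rnase2a were at the floor on all arrays but that one, where they read 354, 220.1 and 138 units.

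Acute phase genes leaned the same way. Of 25 measured genes 11 had a lower and 0 a higher wild-type response, and between 10 and 13 under the 3 other scalings. The median response was -0.17 in wild-type and 0.33 in null liver on the log2 scale. With a floor of 64 units 9 of the 25 had a lower wild-type response. Among the 19 genes with 64 units or more on all arrays 5 did, and the median difference was -0.40 rather than -0.52. Lcn2, lipocalin-2, read 15.2, 18.8, 84.9 and 1238 units and Saa2, a serum amyloid A protein, read 181, 147, 944 and 5392 units. Orm2, an orosomucoid, read 48.9, 33.0, 98.2 and 448 units. These genes were higher in the fed null pool than in the fed wild-type pool and rose from there in null liver with fasting. The fibrinogen chains did not pass, and Fgb read 15070.0, 13260.0, 14831 and 18688 units.

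Metallothioneins, which bind zinc and respond to glucocorticoid, rose in both genotypes and further in null liver. Mt2 read 32.9, 453, 64.9 and 9714 units and Mt1 read 48.1, 2321, 54.2 and 8682 units, with log2 differences of -3.44 and -1.73. Among 18 measured glucocorticoid-responsive genes 9 had a lower and 1 a higher wild-type response, while 10 of the 18 were shared rises. Cdkn1a, the cell cycle inhibitor p21, read 16.4, 27.7, 27.8 and 762 units, and Sgk1, a kinase induced by glucocorticoid and insulin, read 296, 238, 225 and 1347 units. Angptl4, an inhibitor of lipoprotein lipase, read 215, 1196, 34.6 and 639 units. It rose 5.55-fold in wild-type and 18.5-fold in null liver, yet its fasted level was lower in null liver. Fkbp5 and Lpin1 of the same list responded alike in both genotypes. With the filter of 64 units applied to every array, the median difference of this list was -0.16 rather than -0.60.

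Immediate early genes had the largest median difference among the lists of over 7 genes on this scale. Their median response was -1.01 in wild-type and 0.58 in null liver on the log2 scale, and 10 of 15 had a lower and 2 a higher wild-type response. The list was split by class, with 6 shared falls, 6 gained rises, 1 lost fall and 1 reversed gene. Shared falls were 9.48% and gained rises 6.07% of all measured genes. Of the Krüppel-like factors, Klf4 read 9.01, 10.8, 9.49 and 108 units, Klf2 read 18.7, 16.1, 24.1 and 120.3 units and Klf6 read 20.3, 19.3, 21.2 and 106 units. Only the fasted null array was well above the floor for these factors. Socs3, an inhibitor of cytokine signalling, read 38.7, 33.4, 41.9 and 127 units. Dusp6, a phosphatase of ERK, went the other way at 352, 144, 274 and 22.6 units, with a deeper fall in null liver. Most of these genes were dim, and the median difference of -1.11 was -0.73 with a floor of 64 units and -0.69 without the filter on level. Kupffer cell, stellate cell and endothelial markers had their highest sums on the fasted null array, as given above. So did the hepatocyte markers and the dim T and B cell, cholangiocyte, neutrophil and adipocyte lists, but not the erythroid and exocrine pancreas markers. The part of cell types in these results was not tested.

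More genes of insulin and growth hormone signalling had a lower than a higher wild-type response. Without the filter on level, the median difference of the insulin and FoxO list was -0.22 rather than -0.67 on the log2 scale. That of the growth hormone list was -0.062 rather than -0.40. Of 13 measured genes of insulin signalling and FoxO targets, 7 had a lower and 1 a higher wild-type response. Foxo1, the transcription factor that insulin holds out of the nucleus, read 133, 206, 109.8 and 376 units, but without suffixed probe sets its difference was -0.59, at the threshold. Irs1, an insulin receptor substrate, went the other way at 301, 116, 188 and 26.1 units, with a deeper fall in null liver. Its log2 difference of 1.47 was 0.18 with a floor of 64 units. Of 12 genes of the growth hormone and IGF axis, 5 had a lower and 2 a higher wild-type response. Socs2, induced by growth hormone, read 88.6, 234, 43.5 and 457 units, and Stat3 read 268, 378, 312 and 1102 units. Igfals, the acid-labile subunit that carries IGF in blood, went the other way at 110.1, 49.8, 208 and 42.1 units. The coactivators split, with Ppargc1b at 22.2, 25.1, 15.6 and 92.5 units, a gained rise, and Ppargc1a at 23.1, 74.0, 21.9 and 23.7 units, a lost rise. With a floor of 64 units neither coactivator passed.

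Shared responses included genes known to follow the hormones of fasting. At the level of genes 253 (6.64%) rose and 361 (9.48%) fell in both genotypes. Lpin1, a phosphatidate phosphatase and coactivator, read 134, 3774, 160.3 and 4799 units, a rise of 28.1-fold in wild-type and 29.9-fold in null liver. Pnpla2, the triglyceride lipase ATGL, read 61.9, 548, 67.7 and 619.8 units. Fkbp5, a glucocorticoid-induced chaperone partner, read 20.6, 319, 23.8 and 424 units, and Sult1e1, the estrogen sulfotransferase, read 19.6, 79.6, 371 and 1636 units. These 4 had the smallest differences of response among shared rises of 4-fold or more, from -0.049 for Pnpla2 to -0.20 for Fkbp5 on the log2 scale. Sult1e1 responded alike from very different fed levels, and its difference was -1.82 with a floor of 64 units.

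Among the largest shared rises, Cyp17a1, a steroid hydroxylase, read 22.8, 858, 21.7 and 535 units, and its difference of 0.62 fell under the threshold with the 3 other scalings (0.46 to 0.52). Gpcpd1, a glycerophosphodiesterase, read 243, 2467, 145 and 2132 units, St3gal5, the synthase of the ganglioside GM3, read 104, 1362, 50.2 and 1270.4 units, and Nnmt, the nicotinamide methyltransferase, read 55.0, 568, 241 and 3909 units. All 3 rose further in null than in wild-type liver on this scale, although Gpcpd1 did not pass the threshold for the difference.

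Sterol synthesis fell in both genotypes. Shared falls made up 13 of the 17 genes measured for the synthesis and uptake of cholesterol, and the median response was -2.16 in wild-type and -1.77 in null liver on the log2 scale. The fall was the deeper one in wild-type liver for 7 genes and in null liver for 0, and for 7 or 8 and 0 under the 3 other scalings. Many of the fasted values were dim. With a floor of 64 units the count was 4 and the median difference went from -0.39 to -0.17, and 2 of the 10 genes with 64 units or more on all arrays counted. Msmo1, the sterol-C4 methyl oxidase, read 3628, 159.8, 2902 and 869.6 units and Cyp51, the lanosterol demethylase, read 644, 24.1, 597 and 162 units. The log2 difference of Cyp51 was -2.85, and -0.73 in its other probe set. Nsdhl, another enzyme of C4 demethylation, read 312, 26.1, 275 and 94.6 units. Fdps, the farnesyl diphosphate synthase, read 1092, 18.4, 1099 and 68.4 units, with a log2 difference of -1.89 that was -0.087 with a floor of 64 units since both fasted values lay near or under it. Idi1, the isopentenyl diphosphate isomerase, read 2673, 107, 2910.1 and 146 units and fell almost equally here, with a log2 difference of -0.32, but its other probe set gave -1.10.

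Hmgcs1, the cytosolic HMG-CoA synthase, read 1980.2, 442, 2944 and 860.3 units and fell 4.48-fold in wild-type and 3.42-fold in null liver. Its start is shown as that of a shared fall (RefSeq, GRCm38.p6, chr13:119690101-119690400, plus strand, 5′ to 3′), with the sterol element TCACNCCAC in capitals, which begins at position -137 from the start.
Hmgcs1: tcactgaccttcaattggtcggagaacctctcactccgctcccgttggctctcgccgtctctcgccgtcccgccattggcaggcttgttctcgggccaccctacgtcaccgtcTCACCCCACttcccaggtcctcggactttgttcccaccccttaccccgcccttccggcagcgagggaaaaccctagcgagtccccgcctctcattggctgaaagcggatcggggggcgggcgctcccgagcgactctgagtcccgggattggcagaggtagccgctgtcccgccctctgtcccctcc
This element, searched on both strands, was found in 9 of 311 shared falls with a promoter (2.89%) and in 0 of 208 shared rises. It was in 5 of 189 gained rises (2.65%), 2 of 84 lost rises (2.38%) and 4 of 326 gained falls (1.23%). The share was 1.56% of the 3144 measured genes with a promoter and 1.44% of all 27025 genes. Of 13 genes of cholesterol synthesis and uptake with a promoter, 1 held it, which is the Hmgcs1 shown. The E-box CACGTG and the D-box TTANNTAA, elements of circadian factors, were found in 8.09% and 6.93% of all genes and in 12.5% and 4.80% of measured genes. Their shares were 9.52% and 8.33% in lost rises and 11.3% and 5.47% in shared falls. In the 46 lost falls with a promoter they were 6.52% and 13.0%. No test was made of these shares.

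Most measured genes of fatty acid synthesis fell in both genotypes as well. Of 17 measured genes 12 were shared falls. A higher wild-type response was seen for 7 of the 17 and a lower one for 1, or for 4 and 1 or 2 under the 3 other scalings, so that most of the list was not set apart. Scd1, the stearoyl-CoA desaturase, read 3399, 1279, 2586 and 238 units, with a 2.66-fold fall in wild-type and a 10.9-fold fall in null liver. Acly, the ATP citrate lyase, read 3070.4, 848, 3358 and 535 units, and its difference of 0.79 fell to 0.47 in the mean over its probe sets. Srebf1, the gene of the lipogenic factor SREBP-1, read 387, 16.9, 394 and 12.2 units, and Mid1ip1, a partner of acetyl-CoA carboxylase, read 479, 21.7, 318 and 19.5 units. Both genotypes brought these genes to or near the floor. Thrsp, which fell in wild-type liver only, was 1 of the exceptions. Of the 17 genes, 2 rose 1.5-fold or more in wild-type liver with responses less than that apart, and 2 passed in neither genotype.

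Other large shared falls were Angptl8, an inhibitor of lipoprotein lipase, at 488, 15.1, 477 and 28.0 units, and Hsd3b5, a male-specific steroid dehydrogenase, at 4579.7, 273, 3864 and 353 units. Hsd3b2 of the same family read 1087, 50.5, 1064 and 20.0 units, and its difference of 1.30 turned to -0.032 with a floor of 64 units. Cela1, a pancreatic elastase, read 552, 53.9, 745 and 55.0 units and was 1 of 6 exocrine pancreas markers with a probe set, which summed to 656, 128.5, 936 and 134 units. The falls most alike were Gstm6 (a glutathione transferase), Ampd2 (an AMP deaminase), Cnp and Tsc22d1, with log2 differences of -0.018, 0.029, -0.086 and 0.099. With a floor of 64 units Gstm6 gave 0.78 and Ampd2 -0.57, so that their likeness rests on dim values. Tsc22d1 read 4785, 805, 5851 and 919 units and its 2 other probe sets gave 0.15 and 0.25.

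Some falls were shared in direction and far apart in size. Sucnr1, the succinate receptor, read 944, 323, 951 and 17.6 units, and Keg1 read 1426, 446, 1412 and 34.4 units. Chac2, which degrades glutathione, read 666, 329.8, 622 and 14.5 units, with responses at least 4.27 apart on the log2 scale. The fasted null array was the lowest for these 3 genes and lay near or under the floor for Sucnr1 and Chac2. With a floor of 64 units the log2 difference was 2.35 for Sucnr1 and 2.79 for Keg1, beside 4.21 and 3.68 here. Among chaperones, Fkbp4, a partner of HSP90, read 671, 248.7, 743 and 85.0 units and fell deeper in null liver.

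Several large groups had few or no genes with responses apart. None of 37 measured genes of the respiratory chain and ATP synthase had responses 1.5-fold or more apart, on this scale or the 3 other scalings. By the mean of probe sets 1 of 37 did, and without suffixed probe sets 3 of 25, all higher in wild-type liver. Ndufa5, a subunit of complex I, had a log2 difference of 0.51 and 1.03 in its other probe set. None of 30 ribosomal protein genes and none of 29 proteasome genes did so on this scale, while 1 of each did with centring and 1 proteasome gene with the intensity trend removed. With no replicates this describes these arrays and does not show that the genotypes responded alike. Amino acid catabolism and the urea cycle, a list of 32 measured genes, had 1 gene with a higher and 2 with a lower wild-type response and medians of 0.29 and 0.30.

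**Figure D5:**
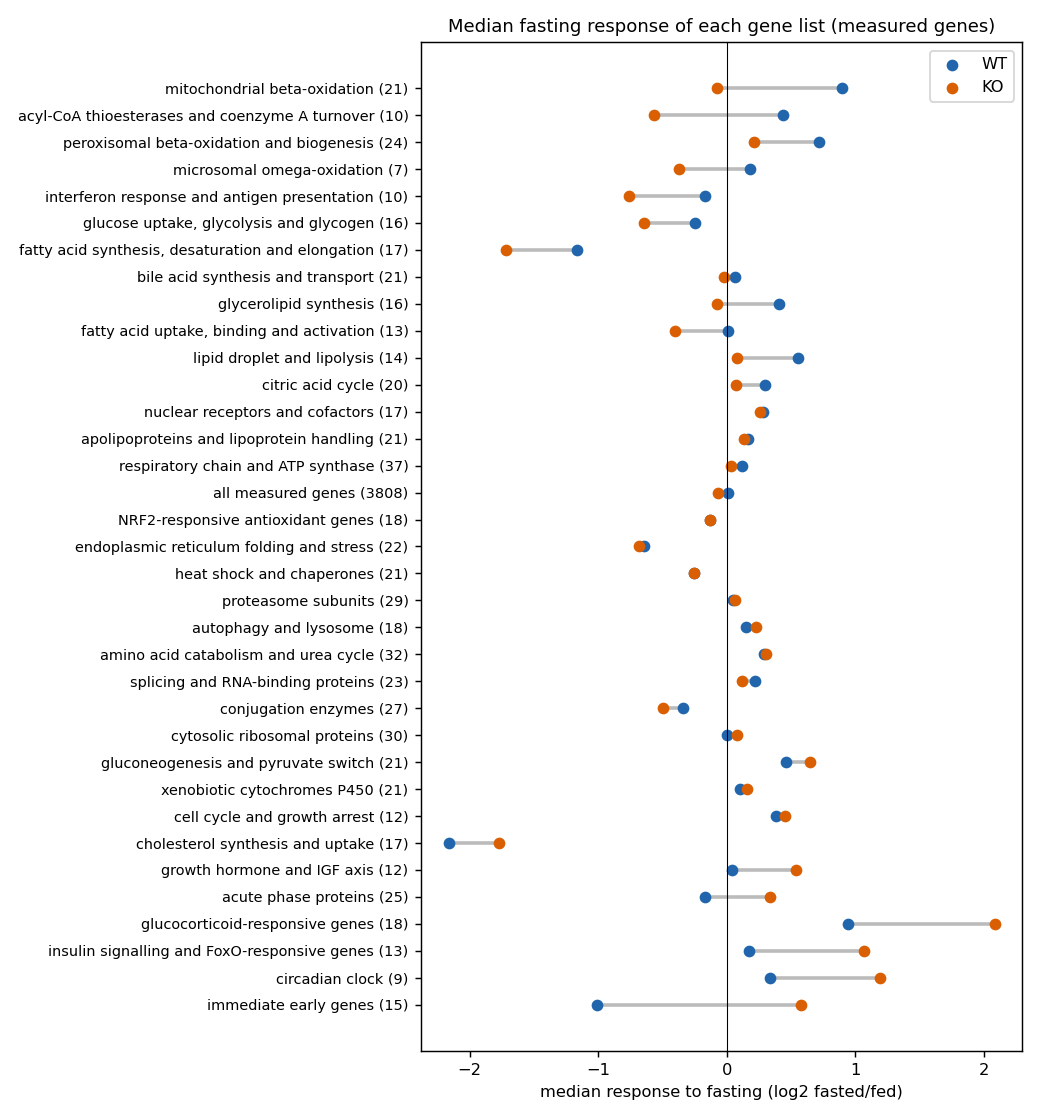
Median log2 response to fasting of the measured genes of each list with 7 or more of them, in wild-type (WT) and null (KO) pools, sorted by the median difference of responses, with the number of genes in parentheses. Mitochondrial beta-oxidation lies at the top (0.90 against -0.08) and immediate early genes at the bottom (-1.01 against 0.58), whereas sterol synthesis is far below 0 in both genotypes. Of the 15 immediate early genes, 6 fell 1.5-fold or more in both genotypes.

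Interferon and antigen presentation genes had 5 of 10 measured genes with a higher wild-type response and 0 with a lower one. Cd74, the invariant chain of MHC class II, read 186, 160.1, 504 and 231 units and Igtp, an interferon-induced GTPase, read 47.6, 19.7, 98.5 and 17.8 units. Both were higher in the fed null pool than in the fed wild-type pool and fell from there. The count was 3, 3 and 2 under quantile normalization, centring and removal of the intensity trend. Without the filter on level it was 5 of 23 genes, and the median difference was 0.075 rather than 0.53 on the log2 scale. With 64 units or more on all arrays it was 2 of 6, with a median difference of 0.15. The lean of this list thus depended on which genes passed the filter.

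The genes that the study singled out spread over the classes. Etfdh and Mgll, the monoglyceride lipase, were lost rises, and Mgll read 831, 1455, 588 and 659 units with a log2 difference of 0.64 that was 0.49 after centring. Pctp was reversed, Pnpla2 was a shared rise, and Etfb passed in neither genotype. Txnip, an inhibitor of thioredoxin and of glucose uptake, read 250.4, 1215, 154 and 541 units, a shared rise with a log2 difference of 0.46 in its brightest probe set and 1.35 in the other. Lipg and Lipe stayed under 64 units on all arrays. As the study chose these genes on these and further samples, they are no independent sign of direction.

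Probe sets of the same gene give the only internal measure of scatter. In 1145 genes with over 1 probe set the difference of responses scattered between probe sets with an SD of 0.41 on the log2 scale. Of 526 such genes with any probe set past 1.5-fold, 184 (35.0%) had all of them past it in the same direction, and 8 had probe sets past it in opposite directions. Genes near the threshold are accordingly uncertain, and those far from it have no replicate check either. Me1 (0.586) and Tusc3 (0.586) lay just inside it, Gabarapl1 (0.585) and Hacd2 (0.582) just outside it, and on the other side Lrpap1 (-0.586) just inside and Cebpb (-0.583) just outside.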

How the data were processed

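Pooled liver RNA of 4 groups (2 genotypes, 2 feeding states) was labelled and hybridized to Affymetrix MOE430A arrays, 1 per group, and each array was assigned to its group by its label. Pools held 5 mice by the design text, which is followed here, although another source gives a lower number for some. The deposited intensity values, in units on a linear scale, were computed by the authors with GCRMA (2.20, from the submitters' processing notes). GCRMA subtracts a background modelled on probe sequence, equalizes the distributions and gives 1 value per probe set. Whether further arrays entered the same normalization was not stated in what was read here. Of 22690 probe sets, 64 were controls. Of the remainder, 20380 name 1 gene, 691 several and 1555 none in the annotation used here, and genes were named from the first kind only. For 20351 of these the gene identifier was found in RefSeq, with 0 symbols differing.

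Values under 16 units were set to 16 and log2 was taken of the deposited values. Responses, their difference, 8 classes and 46 gene lists (10 of them cell type markers) were computed for probe sets with 64 units or more on any array, with 1.5-fold as the threshold, which the study's methods give for pooled arrays. No test was possible with 1 array per group. A bound is written as at least where the floor sets it. Named were the 12 largest differences in each direction and 8 genes per class at 128 units or more on any array, up to 4 members per list, the 4 most alike shared responses of 4-fold or more, Ppara and the 8 genes of the study. Outside this rule, Cpt1a, Acadl, Hmgcs1, Fgb and the genes next to the threshold were named after their values were seen. The members and lists were chosen with earlier results of these data known. Alternatives were a 2-fold threshold, floors of none and 64 units, 2 other filters, quantile normalization, centring on bright probe sets, lowess (fraction 0.3), leaving out probe sets with a suffix that marks possible matches to several transcripts, and counting genes by the brightest or the mean probe set. Motifs were searched in 32851 RefSeq windows of 300 bases (GRCm38.p6). Scripts were checked on simulated data. Python 3.11.15, numpy 2.4.6, pandas 2.3.3, scipy 1.17.1, statsmodels 0.14.6 and matplotlib 3.10.9 were used.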

Additional observations from a re-analysis of the deposited data

Results flagged for a closer look

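For 16 genes the 2 genotypes moved 1.5-fold or more in opposite directions with fasting and ranked among the largest of their kind. With 1 pool per group the difference between the genotypes was not tested in any of them, and 1 array decides each direction. A rise in wild-type and a fall in null liver was seen for Cyp4a14 (log2 difference of responses at least 13.28), Neat1 (3.79), Cyp7a1 (3.55), Retsat (3.18), Etfbkmt (2.99), Vnn3 (2.82), St3gal4 (2.21) and Gpd1 (2.18). A fall in wild-type and a rise in null liver was seen for Bhlhe40 (-5.11), Kcnk5 (-3.15), Noct (-2.85), Tgm2 (-1.96), Rell1 (-1.90), Nfil3 (-1.81), Actg1 (-1.73) and C6 (-1.46). In 374 and 221 of the 1878 probe sets with responses apart, the fasted null array stood below or above the other 3, beside 415 and 258 of all 6032. The part of that array in these 16 genes was not tested.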

How the results depend on the processing

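Of 121 counts and correlations under the alternatives, 76 stayed within the tolerance (1.5-fold for counts, 0.05 for the correlation), 45 moved and 0 reversed. Of 383 list medians 14 moved and 0 reversed, and of 1720 differences of named genes 114 moved and 6 reversed. With a 2-fold threshold the higher and lower wild-type responses were 552 and 318, shared rises and falls 172 and 244, lost ones 62 and 31, gained ones 191 and 308, and reversed ones 13 and 6. With 64 units or more required on all 4 arrays, which tests fewer probe sets, 687 and 421 were apart, 267 and 309 shared, 210 and 329 gained, and 32 and 10 reversed. Without suffixed probe sets, again fewer, 738 and 428 were apart, 272 and 332 shared, 112 and 50 lost, 219 and 356 gained, and 10 fell in wild-type and rose in null liver. Counted as genes by the brightest probe set, 775 and 460 were apart, with 253 shared rises, 104 lost rises, 231 gained rises, and 36 and 11 reversed. By the mean of probe sets, 768 and 461 were apart, with 262 shared rises, 113 and 54 lost, 377 gained falls, and 37 and 11 reversed. Gained rises were 551 without a filter, which tests more probe sets, and 539 with centring, which gave 432 gained falls. Falls in wild-type with rises in null liver were 12 with a floor of 64 units. That floor reversed Chka (0.11), Gstm3 (0.87), Hsd3b2 (-0.032) and Hspa1b (-0.19), genes with arrays under it. Without suffixed probe sets, which leaves another probe set of the gene, Becn1 (0.11) and Hnrnpdl (0.12) reversed.

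No paired analysis was possible because each group holds 1 pooled array. Leaving out an array removes a group, so no alternative of that kind exists. Values near the floor limit what the arrays show. Of the lost rises 6 probe sets, of the gained rises 18 and of the shared falls 30 had an array at 16 units, where the size of a response is a bound or unknown. The single pools and the substrains bear on every class. The fasted null array enters every difference of responses, but it did not stand apart from the other arrays equally often in every class.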
